A study of Mus musculus with 48 samples.

Results

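Transcripts of 9 enzymes of the methionine cycle and of one-carbon metabolism (Mat1a, Gnmt, Pemt, Dnmt1, Ahcy, Bhmt, Cbs, Shmt1 and Mthfd1) were followed in mouse liver after exposure to dichloroacetic acid (DCA). The genes were chosen by symbol, with earlier results of these data known. All 9 were among the 11275 genes of the table for frozen (FROZ) liver, and 8 were among the 6673 genes of the table for formalin-fixed paraffin-embedded (FFPE) liver, where Dnmt1 was not listed. The animals were 24 male B6C3F1 mice, a hybrid strain prone to liver tumors, aged 4 weeks. They drank water with 0, 1.0, 2.0 or 3.5 g/L DCA for 6 days, equal to 0 (vehicle controls), 198, 313 and 427 mg/kg-d, with 6 mice per dose. Each mouse gave 1 FROZ library from mixed lobes and 1 FFPE library from the left lateral and right medial lobes, all from archived tissue, and the FROZ assay began with purified RNA whereas the FFPE assay began with tissue lysate. The comparisons asked how each dose differed from vehicle controls within a preservation, and whether the response differed between preservations. DNA methylation itself was not measured.

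The methionine cycle makes S-adenosylmethionine (SAM), the methyl donor for DNA, histones, phospholipids and many small molecules. MAT enzymes form SAM from methionine, methyltransferases use it and release S-adenosylhomocysteine, and AHCY splits that product into adenosine and homocysteine. Homocysteine is then either methylated back to methionine, with betaine or a folate as the methyl source, or withdrawn through transsulfuration toward cysteine. The folate cycle supplies one-carbon units from serine and glycine. Liver carries most of the body's methionine metabolism and is the main site of the adult enzyme encoded by Mat1a. DCA, a by-product of water chlorination and a liver carcinogen in mice, is known to lower DNA methylation in liver.

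Values were log2 of CPM plus 1, where CPM is a gene's count scaled to a common library total, from TempO-Seq, in which pairs of detector oligos annealed to a transcript are ligated, amplified and sequenced. Detector pairs differ in efficiency, so levels were compared between groups and not between genes. FROZ libraries held 6.69 to 9.84 M reads and FFPE libraries 1.83 to 6.01 M. The share of listed genes at 0 was 0.106 to 0.541% per FROZ library and 0.974 to 23.7% per FFPE library, and 3 FFPE libraries, all at 198 mg/kg-d, held under 3 M reads. Of the hepatocyte markers, 9 of 10 were listed in FROZ and 8 of 10 in FFPE, with summed CPM of 26926 to 42543 per FROZ library. The median sum was 34501 in FROZ controls and 27728 at 427 mg/kg-d. Not every marker was high, with FROZ control means from 2.54 for Cps1 to 14.2 for Apoa1 in log2(CPM + 1). In these bulk samples, fewer cells of a type and less RNA per cell cannot be told apart.

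Proximal promoters of the 3 members that fell together at 313 mg/kg-d in FROZ (Ahcy, Pemt and Cbs) and of Bhmt, which rose there, are shown because CG dinucleotides are the sites of DNA methylation. Each runs from 250 bases before to 50 bases after the first RefSeq start (GRCm38.p6, all on the minus strand), with every CG in capitals. The windows were chr2:155074448-155074747 for Ahcy, chr11:60040139-60040438 for Pemt, chr17:31637156-31637455 for Cbs and chr13:93637709-93638008 for Bhmt.
Ahcy: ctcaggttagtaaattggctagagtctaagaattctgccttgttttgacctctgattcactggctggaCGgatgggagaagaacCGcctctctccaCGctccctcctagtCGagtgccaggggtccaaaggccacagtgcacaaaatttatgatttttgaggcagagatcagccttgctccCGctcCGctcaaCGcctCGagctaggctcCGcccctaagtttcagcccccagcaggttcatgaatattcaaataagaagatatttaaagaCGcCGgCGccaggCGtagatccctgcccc
Pemt: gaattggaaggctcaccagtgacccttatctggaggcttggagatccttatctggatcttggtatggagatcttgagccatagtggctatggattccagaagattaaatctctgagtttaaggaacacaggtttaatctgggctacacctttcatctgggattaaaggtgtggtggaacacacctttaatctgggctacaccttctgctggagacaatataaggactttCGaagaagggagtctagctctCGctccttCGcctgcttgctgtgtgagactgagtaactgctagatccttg
Cbs: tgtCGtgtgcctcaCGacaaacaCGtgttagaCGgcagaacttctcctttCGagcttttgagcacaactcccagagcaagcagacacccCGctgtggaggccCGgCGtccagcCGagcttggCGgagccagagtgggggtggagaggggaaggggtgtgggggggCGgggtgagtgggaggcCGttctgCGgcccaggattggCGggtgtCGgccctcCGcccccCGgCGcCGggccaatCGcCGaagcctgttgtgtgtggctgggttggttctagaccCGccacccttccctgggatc
Bhmt: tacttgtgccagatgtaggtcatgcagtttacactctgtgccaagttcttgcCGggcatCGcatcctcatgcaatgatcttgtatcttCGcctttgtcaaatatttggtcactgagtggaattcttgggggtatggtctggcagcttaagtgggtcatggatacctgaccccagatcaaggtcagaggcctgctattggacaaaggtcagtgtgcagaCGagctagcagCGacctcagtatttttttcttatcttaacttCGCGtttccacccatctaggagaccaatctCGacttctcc
The Cbs window held 22 CG, the Ahcy window 13, the Bhmt window 8 and the Pemt window 3. Of all 32851 mouse promoter windows of 300 bases in the RefSeq set, 94.6% held at least 1 CG, with a median of 7 and quartiles of 3 and 20. The windows of the 3 members that fell thus held from 3 to 22 CG, with the low end set by Pemt alone. Pemt has a second RefSeq start, not shown, whose window held 2 CG. Both of its windows lie inside the GENCODE span of the gene, chr11:59970614-60046489, and no window was available at the 5' end of that span. Which start was in use in these livers was not tested. The nuclear receptor motif AGGTCA, searched on both strands, matched at 3 places in the Bhmt window, 1 in the Ahcy window and 0 in the Cbs and Pemt windows, and 16.3% of all windows held it. Promoters matched for 8 of the 9 members, the remaining one being Mat1a.

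Mat1a encodes the liver's methionine adenosyltransferase, which makes SAM, and it was the member that rose in both preservations at 427 mg/kg-d. The gene lies on the plus strand at chr14:41105035-41124412 (GRCm38). In FROZ vehicle controls Mat1a ranged from 10.05 to 10.64 with a median of 10.43 log2(CPM + 1). At 198 mg/kg-d it ranged from 9.96 to 10.55 with a median of 10.23. It ranged from 10.57 to 11.04 with a median of 10.79 at 313 mg/kg-d. The 6 libraries at 427 mg/kg-d, from 11.22 to 11.74 with a median of 11.45, all lay above every control library. The log2 difference from vehicle controls was 1.02 ± 0.11 (SE, n = 6 per group), a 2.03-fold higher level with a 95% interval of 0.79 to 1.25 on the log2 scale (limma, FDR = 7.53e-08). Mat1a was the only member called at 427 mg/kg-d in FROZ, 1 of 9, where 30.1% of all genes were called. It was also a DEG by the study's rule of FDR under 0.05 and more than 2-fold, as were 3.5% of all genes, and groups did not overlap for 14.7% of all genes. Under median-ratio scaling the Mat1a difference was 0.88 (limma, FDR = 1.67e-06), still called but below 2-fold.

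FFPE libraries of the same mice gave a similar size of difference for Mat1a. Controls ranged from 10.42 to 10.97 with a median of 10.74, and the 198 mg/kg-d group from 9.89 to 10.81 with a median of 10.69. The 313 mg/kg-d group ranged from 10.73 to 11.43 with a median of 10.86, overlapping both. The 427 mg/kg-d group ran from 11.32 to 12.17 with a median of 11.72, again above every control. The log2 difference at 427 mg/kg-d was 1.02 ± 0.18 (SE), with a 95% interval of 0.65 to 1.39 (limma, FDR = 0.000531). Of the 8 members in FFPE it was the only one called, against 2.41% of all genes, and the only DEG, against 1.81%, and groups did not overlap for 4.48% of all genes. Its difference ran from 0.91 to 1.04 over alternatives other than leaving out an animal. The 2-fold threshold was thus not passed in all of them. Within animals, the FFPE response minus the FROZ response was -0.01 ± 0.21 (SE) at 427 mg/kg-d, with a 95% interval of -0.44 to 0.43 (limma on paired differences, FDR = 1).

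The order of Mat1a levels in FROZ was 198 mg/kg-d, controls, 313 mg/kg-d and 427 mg/kg-d. The lowest dose did not differ from controls beyond the spread, with a log2 difference of -0.20 and a 95% interval of -0.43 to 0.03 (limma, FDR = 0.373). Its difference from controls at 313 mg/kg-d was 0.37 ± 0.11 (limma, FDR = 0.0156), and it lost its call without control animal 7 (log2 difference 0.29, FDR = 0.0521). The step from 198 to 313 mg/kg-d was 0.56 ± 0.11 (limma, FDR = 0.0012), and the step from 313 to 427 mg/kg-d was 0.66 ± 0.11 (limma, FDR = 0.00103). Neither pair of neighboring groups overlapped, as for 4.55% and 2.05% of all genes. In FFPE the step from 198 to 313 mg/kg-d was 0.43 ± 0.18 and was not called (limma, FDR = 0.303). The FFPE step from 313 to 427 mg/kg-d was 0.80 ± 0.18 (limma, FDR = 0.031), but it kept its call in 3 of 12 refits that left out 1 animal.

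Among all members, 2 of 9 were called for the FROZ step from 198 to 313 mg/kg-d (Mat1a higher and Pemt lower), against 11.7% of all genes. For the FROZ step from 313 to 427 mg/kg-d 1 of 9 was called, against 3.07%. In FFPE 0 of 8 were called for the lower step (2 at an unadjusted p under 0.05, where 12.5% of all genes had one), against 1.06%, and 1 of 8 for the upper step, against 0.375%. A linear fit over dose gave a FROZ slope for Mat1a of 1.00 ± 0.18 (SE) log2 units per 427 mg/kg-d (limma, FDR = 8.68e-05). The FFPE slope was 0.95 ± 0.23 (limma, FDR = 0.0147). Ahcy had the other called slope, -0.36 ± 0.13 in FROZ (limma, FDR = 0.041), which kept its call in 16 of 24 refits without 1 animal. Slopes of 2 of 9 members were called in FROZ, against 32.2% of all genes, and of 1 of 8 in FFPE, against 2.17%. The FROZ count was 5 under median-ratio scaling, 1 higher and 4 lower. It was 1 without control animal 3, 5 or 6 or dosed animal 74, 77 or 97, and 4 without control animal 8.

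**Figure D1:**
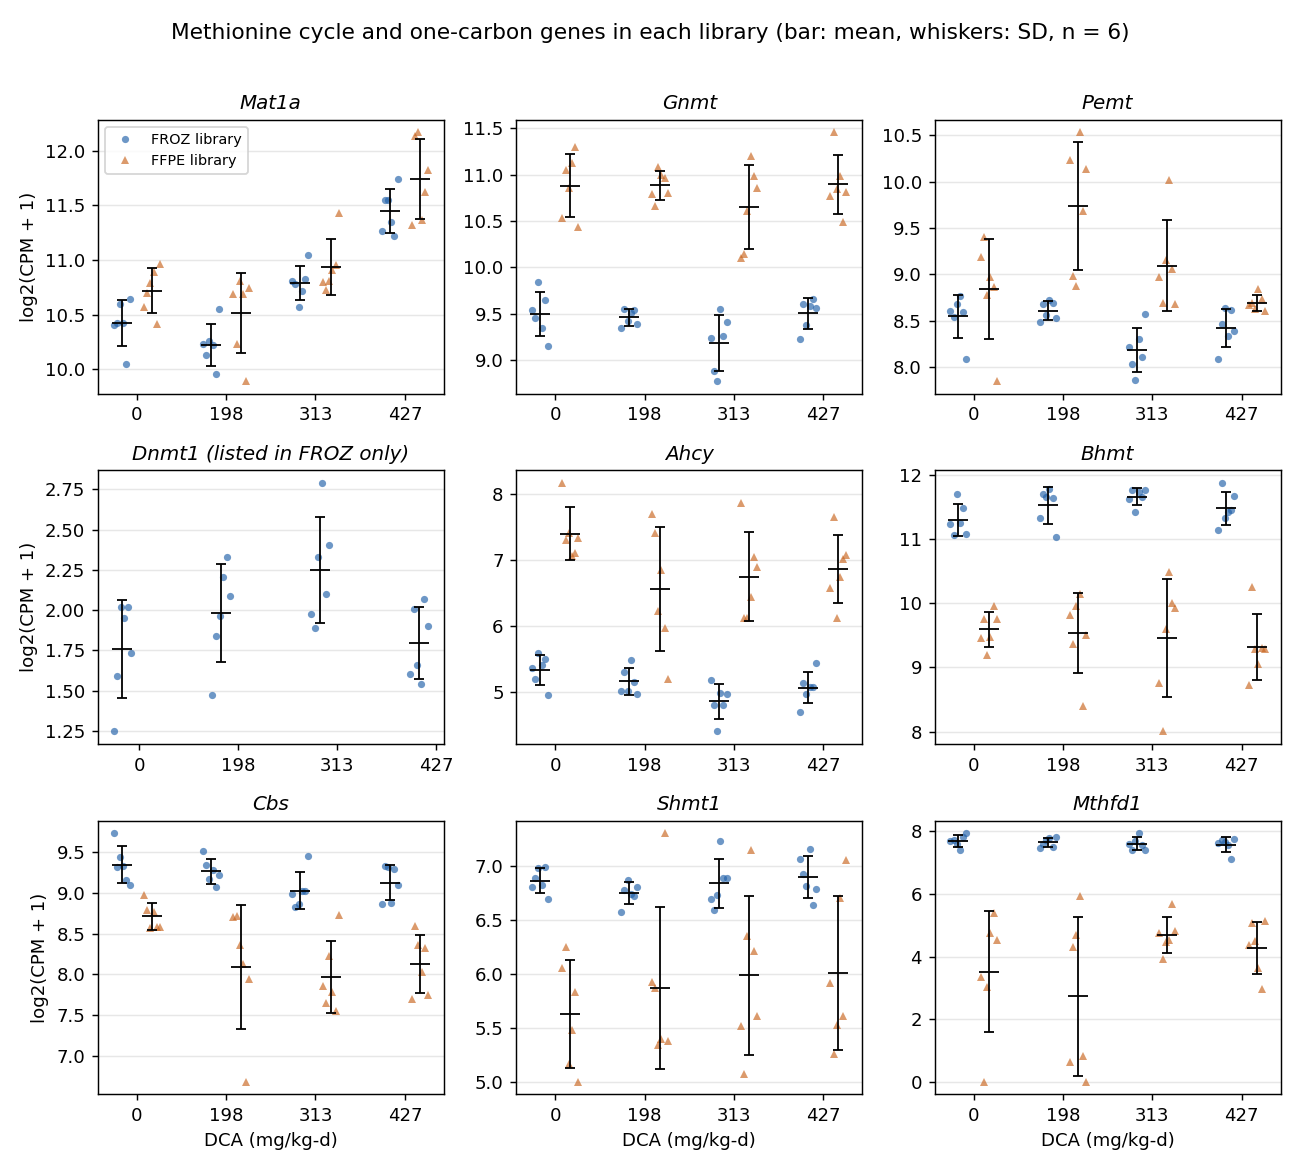
Level of each gene in log2(CPM + 1) in every library, by DCA dose in mg/kg-d, with circles for FROZ and triangles for FFPE libraries (bars are means and whiskers SD, n = 6). Mat1a climbed from 313 to 427 mg/kg-d in both preservations, Dnmt1 was read in FROZ only, and FFPE values of Mthfd1 included libraries at 0.

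In FROZ liver at 313 mg/kg-d, 6 of 9 members were called, against 26.7% of all genes. Leaving out 1 animal at a time gave 3 to 5 members, with 3 without control animal 3, control animal 4 or dosed animal 75. The 3 that rose were Mat1a, Dnmt1 and Bhmt, where 20.5% of all genes rose. The 3 that fell were Ahcy, Pemt and Cbs, where 6.15% of all genes fell. None was a DEG, against 2.31% of all genes, and none of the 9 groups stood clear of the controls, against 11.5% of all genes. The median of all genes shifted by 0.11 on the log2 scale at this dose under the deposited scaling. Relative to that shift, Mat1a lay at 0.26, Dnmt1 at 0.38 and Bhmt at 0.25. On the same scale Ahcy lay at -0.58, Pemt at -0.47, Cbs at -0.42 and Gnmt at -0.42. With each library scaled by its median ratio instead, 4 of 9 members were called, all lower (Ahcy, Pemt, Cbs and Gnmt), and Mat1a, Dnmt1 and Bhmt were not. The share of higher genes among all calls at 313 mg/kg-d was 77% under the deposited scaling and 48.7% under the other, and at 427 mg/kg-d the shares were 75.6% and 50%. Pericentral hepatocyte markers fell in 6 of 8 at the same dose, in both scalings, while the pericentral marker Glul was at 0.24 and not called (limma, FDR = 0.0717). Periportal markers fell in 3 of 8 under the deposited scaling and in 6 of 8 under the other. The part of these markers in the decreases was not tested.

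**Figure D2:**
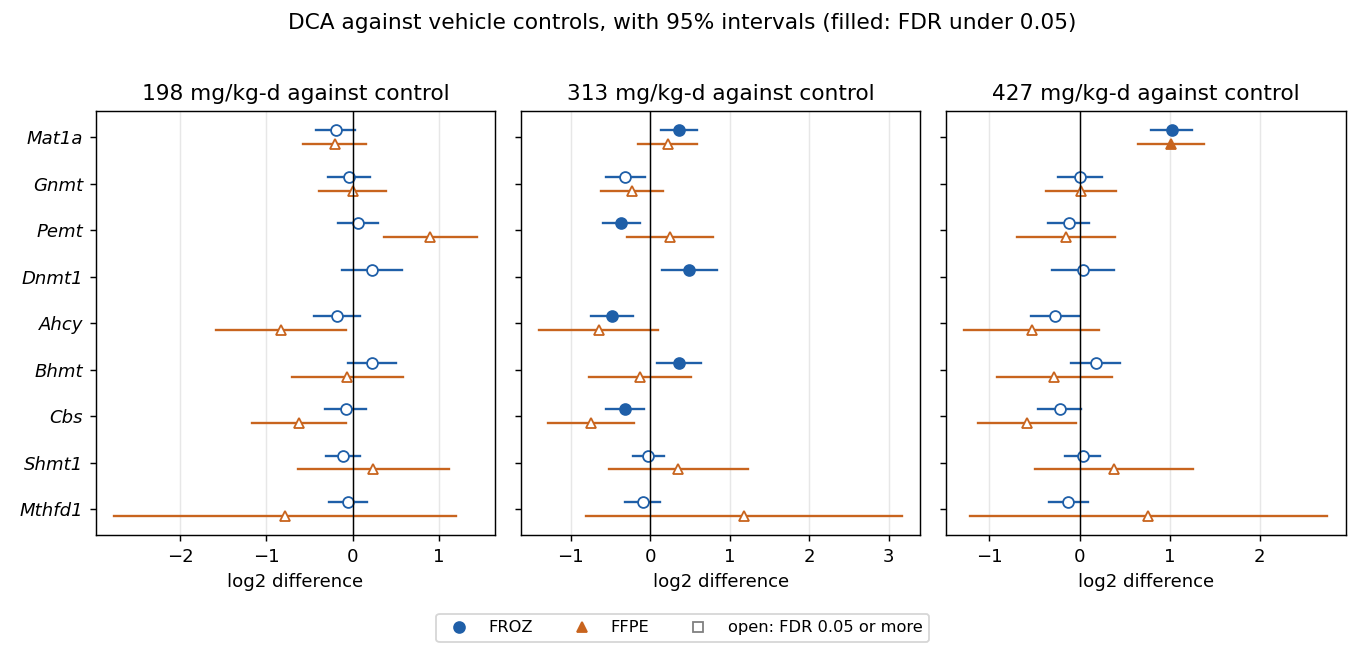
Log2 difference of each gene from vehicle controls at 198, 313 and 427 mg/kg-d, with 95% intervals, for FROZ (circles) and FFPE (triangles), where filled symbols have FDR under 0.05. Most filled symbols are in FROZ at 313 mg/kg-d, while at 427 mg/kg-d the 2 filled symbols are both Mat1a.

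Gnmt and Pemt are the liver's large consumers of SAM. GNMT methylates glycine to sarcosine and buffers the SAM supply, and PEMT methylates phosphatidylethanolamine to phosphatidylcholine. Pemt lies at chr11:59970614-60046489 on the minus strand. Pemt in FROZ ranged from 8.09 to 8.77 with a median of 8.60 in controls. It ranged from 8.48 to 8.72 with a median of 8.62 at 198 mg/kg-d, from 7.87 to 8.57 with a median of 8.17 at 313 mg/kg-d and from 8.09 to 8.64 with a median of 8.43 at 427 mg/kg-d. All 6 mice at 313 mg/kg-d lay below the control median, yet the groups overlapped, and control animal 8, at 8.09, lay apart from the other controls. The log2 difference was -0.36 ± 0.11 (limma, FDR = 0.0179), and without animal 75 it was -0.30 and not called (FDR = 0.0558). Against 198 mg/kg-d the difference was -0.43 ± 0.11 (limma, FDR = 0.0131), called in all 12 refits without 1 animal. Its difference at 427 mg/kg-d was -0.12 ± 0.11 (limma, FDR = 0.453), and that level did not differ from the 313 mg/kg-d level beyond the spread (log2 difference 0.24 ± 0.11, limma, FDR = 0.263).

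In FFPE, Pemt was called at no dose. It ranged from 7.85 to 9.40 with a median of 8.92 in controls and from 8.87 to 10.53 with a median of 9.91 at 198 mg/kg-d. The log2 difference of 0.90 ± 0.27 had an unadjusted p of 0.00194 and did not pass across all genes (limma, FDR = 0.231). The 3 FFPE libraries under 3 M reads belong to that group, and without them the difference was 0.34 (limma, FDR = 0.857). The FFPE values at 313 mg/kg-d ranged from 8.68 to 10.02 with a median of 9.02, and those at 427 mg/kg-d from 8.60 to 8.84 with a median of 8.68. For 198 mg/kg-d the FFPE response of Pemt minus its FROZ response was 0.83 ± 0.32, which did not pass across shared genes (limma, adjusted p = 0.372, unadjusted p = 0.0158).

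Gnmt was called at no dose under the deposited scaling. The gene lies at chr17:46725664-46729168 on the minus strand, and Gm26904 overlaps it. FROZ values ranged from 9.15 to 9.84 with a median of 9.50 in controls, from 9.34 to 9.55 with a median of 9.47 at 198 mg/kg-d and from 9.23 to 9.66 with a median of 9.58 at 427 mg/kg-d. The 313 mg/kg-d group ran from 8.77 to 9.55 with a median of 9.25, and 5 of 6 mice lay below the control median. The log2 difference was -0.31 ± 0.12 and missed the threshold (limma, FDR = 0.0519), with a 95% interval of -0.55 to -0.07. It passed under median-ratio scaling (log2 difference -0.45, limma, FDR = 0.00514), and also with a 10 CPM filter, array weights or voom. At 427 mg/kg-d the FROZ difference was 0.01 with a 95% interval of -0.24 to 0.25, and the FFPE difference 0.01 with an interval of -0.38 to 0.40. FFPE levels ranged from 10.44 to 11.30 with a median of 10.95 in controls and from 10.10 to 11.20 with a median of 10.73 at 313 mg/kg-d, where the difference was -0.23 ± 0.19 (limma, FDR = 0.689).

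Dnmt1 encodes the maintenance DNA methyltransferase, which copies methylation onto new strands after replication. The gene lies at chr9:20907209-20959888 on the minus strand. It was read at 12 to 43 reads per FROZ library, so its counting error is large. Read counts carry no molecular identifiers, so a floor in reads covers counting error only. Controls ranged from 1.25 to 2.02 with a median of 1.84. The ranges were 1.48 to 2.33 with a median of 2.02 at 198 mg/kg-d, 1.89 to 2.79 with a median of 2.22 at 313 mg/kg-d and 1.54 to 2.07 with a median of 1.78 at 427 mg/kg-d. All 6 mice at 313 mg/kg-d lay above the control median, with overlap between the groups. The log2 difference was 0.49 ± 0.17 (limma, FDR = 0.0311), called in 6 of 12 refits without 1 animal. At 427 mg/kg-d it was 0.04 ± 0.17 with a 95% interval of -0.31 to 0.38 (limma, FDR = 0.893). The difference of -0.45 ± 0.17 from 313 to 427 mg/kg-d did not pass across all genes, with an unadjusted p of 0.0123 (limma, FDR = 0.148). Under median-ratio scaling the differences were 0.39 at 313 mg/kg-d (limma, FDR = 0.0949) and -0.07 at 427 mg/kg-d, so no difference was called in either direction.

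Genes of DNA replication were counted beside Dnmt1, since its transcript is known to peak in dividing cells. Of 16 listed replication genes, 8 rose at 313 mg/kg-d in FROZ and 0 fell, where 20.5% of all genes rose and 6.15% fell. Their median log2 difference was 0.61 against 0.11 over all genes, and 5 rose under median-ratio scaling. The minichromosome maintenance gene Mcm2 differed by 0.77 ± 0.17 (limma, FDR = 0.00107). The ligase gene Lig1 differed by 0.80 ± 0.22 (limma, FDR = 0.00836). Uhrf1, whose product brings DNMT1 to new DNA, is outside these 16 and was counted with the DNA methylation genes. It differed by 0.66 ± 0.24 (limma, FDR = 0.0419). At 427 mg/kg-d 0 of the 16 were called, against 30.1% of all genes, and their median was 0.16 against 0.10 over all genes. The summed CPM of the list was 116 to 192 in controls, 195 to 310 at 313 mg/kg-d and 125 to 231 at 427 mg/kg-d. Whether the Dnmt1 values followed from the share of dividing cells was not tested. Mcm2, Lig1 and Uhrf1 were named after their values were seen.

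Ahcy encodes S-adenosylhomocysteine hydrolase, the single step that clears the product of every SAM-dependent methylation. Its FROZ values ranged from 4.96 to 5.59 with a median of 5.39 in controls and from 4.97 to 5.49 with a median of 5.09 at 198 mg/kg-d. They ranged from 4.41 to 5.19 with a median of 4.89 at 313 mg/kg-d and from 4.70 to 5.44 with a median of 5.08 at 427 mg/kg-d. All 6 mice at 313 mg/kg-d lay below the control median. The log2 difference was -0.48 ± 0.13 (limma, FDR = 0.00723), the one decrease called in all 12 refits without 1 animal and under every alternative tried. At 427 mg/kg-d it was -0.27 ± 0.13 and did not pass (limma, FDR = 0.119), though it passed under median-ratio scaling at -0.41 (limma, FDR = 0.0122). Ahcy at chr2:155059310-155074497 shares 68.7% of its windows of 50 bases with other transcripts, most often Gm4737, so its reads are uncertain, and Gm45609 also overlaps it. In FROZ Ahcy took a median of 45.1% of the CPM of the pair in controls and 45.1% at 313 mg/kg-d. With both genes summed the difference at 313 mg/kg-d was -0.51 (limma, FDR = 0.00509).

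In FFPE, Ahcy ranged from 7.06 to 8.16 with a median of 7.31 in controls. It ranged from 5.20 to 7.69 with a median of 6.54 at 198 mg/kg-d, 6.11 to 7.86 with a median of 6.66 at 313 mg/kg-d and 6.13 to 7.65 with a median of 6.88 at 427 mg/kg-d. The means of all 3 dosed groups were below the control mean, as in FROZ, and the groups overlapped. The FFPE differences were -0.83 ± 0.37, -0.65 ± 0.37 and -0.53 ± 0.37 in dose order, with limma FDR of 0.375, 0.512 and 0.875. The share of Ahcy in the CPM of its pair with Gm4737 varied from 45.9 to 92.6% between FFPE controls. With both genes summed the differences were -0.90, -0.71 and -0.53, with limma FDR of 0.324, 0.428 and 0.832. With SEs of 0.37 in FFPE against 0.13 in FROZ, the 95% intervals in FFPE took in the FROZ differences.

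Bhmt encodes betaine-homocysteine methyltransferase, which remakes methionine from homocysteine with a methyl group from betaine. The gene lies at chr13:93616675-93637961 on the minus strand, and Gm15622 overlaps it. FROZ values ranged from 11.07 to 11.69 with a median of 11.23 in controls, 11.03 to 11.78 with a median of 11.65 at 198 mg/kg-d, 11.41 to 11.76 with a median of 11.70 at 313 mg/kg-d and 11.13 to 11.87 with a median of 11.43 at 427 mg/kg-d. All 6 mice at 313 mg/kg-d lay above the control median. The log2 difference was 0.36 ± 0.13 (limma, FDR = 0.0477), called in 3 of 12 refits without 1 animal and lost under median-ratio scaling (0.22, limma, FDR = 0.25). The differences at 198 and 427 mg/kg-d were 0.23 ± 0.13 and 0.18 ± 0.13, with limma FDR of 0.409 and 0.348. Bhmt shares 25.3% of its windows of 50 bases with another transcript, most often Gm5096, which was in neither table, so its reads are uncertain too. In FFPE Bhmt ranged from 9.20 to 9.95 with a median of 9.61 in controls and from 8.00 to 10.49 with a median of 9.76 at 313 mg/kg-d, a difference of -0.13 ± 0.31 (limma, FDR = 0.922).

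Cbs encodes cystathionine beta-synthase, which commits homocysteine to transsulfuration. The gene lies at chr17:31608894-31637238 on the minus strand. Its FROZ values ranged from 9.10 to 9.73 with a median of 9.33 in controls and from 9.07 to 9.51 with a median of 9.25 at 198 mg/kg-d. The 313 mg/kg-d group ran from 8.83 to 9.45 with a median of 9.0, and at 427 mg/kg-d from 8.86 to 9.33 with a median of 9.19. In that 313 mg/kg-d group 5 of 6 mice lay below the control median, and animal 78, at 9.45, stood above the rest. The log2 difference was -0.32 ± 0.12 (limma, FDR = 0.0407), called in 3 of 12 refits without 1 animal. The difference at 427 mg/kg-d was -0.22 ± 0.12 (limma, FDR = 0.155), and it passed under median-ratio scaling at -0.37 (limma, FDR = 0.0161).

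In FFPE, Cbs ranged from 8.57 to 8.97 with a median of 8.68 in controls, a narrow group. It ranged from 6.68 to 8.72 with a median of 8.24 at 198 mg/kg-d, 7.55 to 8.73 with a median of 7.82 at 313 mg/kg-d and 7.70 to 8.59 with a median of 8.18 at 427 mg/kg-d. All 3 dosed FFPE means lay below the control mean, and 6 of 6 mice at 427 mg/kg-d lay below the control median. The differences were -0.62 ± 0.27, -0.74 ± 0.27 and -0.59 ± 0.27 in dose order, with unadjusted p of 0.0267, 0.00892 and 0.0355. None passed across all genes, with limma FDR of 0.365, 0.226 and 0.491. The 427 mg/kg-d difference passed when the fit held those 12 libraries alone (limma, FDR = 0.0298) or with array weights (limma, FDR = 0.0469).

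The folate enzymes showed no called change at any dose. SHMT1 passes a one-carbon unit from serine to folate in the cytosol, and MTHFD1 converts between the folate one-carbon forms. Shmt1 lies at chr11:60788104-60811718 on the minus strand and Mthfd1 at chr12:76255298-76319803 on the plus strand. Shmt1 in FROZ ranged from 6.69 to 7.00 with a median of 6.86 in controls and from 6.64 to 7.16 with a median of 6.88 at 427 mg/kg-d, a difference of 0.03 ± 0.10 with a 95% interval of -0.16 to 0.23 (limma, FDR = 0.825). At 198 and 313 mg/kg-d the intervals were -0.31 to 0.08 and -0.22 to 0.17. Mthfd1 in FROZ ranged from 7.41 to 7.94 with a median of 7.71 in controls and from 7.13 to 7.77 with a median of 7.65 at 427 mg/kg-d, with an interval of -0.34 to 0.10 (limma, FDR = 0.423). In FFPE, Shmt1 ranged from 5.00 to 6.25 with a median of 5.66 in controls and from 5.26 to 7.06 with a median of 5.77 at 427 mg/kg-d, with an interval of -0.49 to 1.26. Mthfd1 was at 3.35, 0, 3.03, 4.75, 5.41 and 4.53 in the 6 FFPE controls and at 0.63, 4.32, 4.69, 5.92, 0.82 and 0 at 198 mg/kg-d. A listed 0 means that no read was counted, and up to 3 reads were allowed for it as counting error. Mthfd1 ran from 0 to 241 reads in FFPE controls. The 95% interval at 427 mg/kg-d was -1.22 to 2.75, so changes of Mthfd1 within it were not resolved in FFPE. The cause of this spread was not tested.

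At 198 mg/kg-d 0 of 9 members were called in FROZ, against 1.56% of all genes, and 0 had an unadjusted p under 0.05 in limma, against 17.1%. Voom on recovered reads also called 0. At 198 mg/kg-d 71.6% of all FROZ calls were higher under the deposited scaling and 23.4% under median-ratio scaling. The FROZ differences at this dose ran from -0.20 for Mat1a to 0.23 for Bhmt. In FFPE 0 of 8 were called at 198 mg/kg-d, against 0.0599% of all genes, with 3 at an unadjusted p under 0.05 (Pemt, Ahcy and Cbs), against 11.8%. For 313 mg/kg-d 0 of 8 were called in FFPE, against 1.08%, with 1 at an unadjusted p under 0.05 (Cbs), against 11.7%. Voom called 0 at both doses. SEs of the members at 313 mg/kg-d were 0.10 to 0.17 in FROZ and 0.18 to 0.97 in FFPE.

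The members' responses passed no paired test of a difference between preservations. At 198 and 427 mg/kg-d 0 of 8 members were called, against 0.0303% of shared genes, and at 313 mg/kg-d 0 of 8 against 0%, with 1, 0 and 0 members at an unadjusted p under 0.05 in dose order, against 11.4%, 7.39% and 2.22% of shared genes. Levels in vehicle controls, in contrast, differed between preservations for 6 of 8 members, against 53.3% of 6591 shared genes. Ahcy was higher in FFPE by 2.05 ± 0.26 and Gnmt by 1.39 ± 0.17 on the log2 scale. Ahcy shares sequence with Gm4737, and its median share of the CPM of that pair was 66.8% in FFPE controls against 45.1% in FROZ controls. The level of the summed pair was not compared between preservations. Bhmt was at -1.70 ± 0.29, Shmt1 at -1.23 ± 0.28, Cbs at -0.64 ± 0.20 and Mthfd1 at -4.19 ± 0.65, all lower in FFPE. Their limma FDR ranged from 2.43e-07 for Gnmt to 0.0101 for Cbs. Mat1a, at 0.30 ± 0.15 (limma, FDR = 0.0943), and Pemt, at 0.29 ± 0.23 (limma, FDR = 0.28), did not pass. The tables were scaled to CPM separately, so these are shares of different gene sets.

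**Figure D3:**
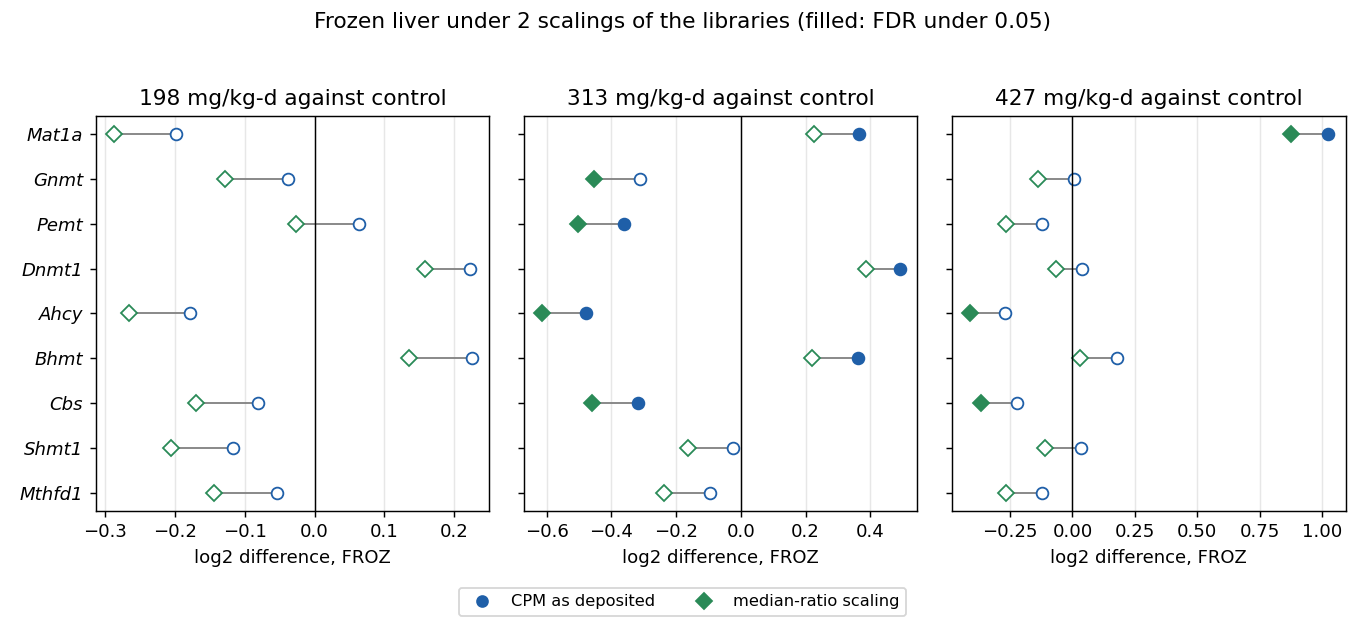
Log2 difference from vehicle controls of each gene in FROZ liver at 198, 313 and 427 mg/kg-d under the deposited CPM (circles) and median-ratio scaling (diamonds), where filled symbols have FDR under 0.05. Every diamond lies to the left of its circle, and at 313 mg/kg-d the filled symbols of Mat1a, Dnmt1 and Bhmt become open while that of Gnmt becomes filled.

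Across the 24 FROZ libraries, the members that fell at 313 mg/kg-d varied together and with Gnmt. Pearson's r was 0.763 between Gnmt and Ahcy, 0.755 between Gnmt and Pemt, 0.756 between Pemt and Ahcy, and 0.726 between Pemt and Cbs. Cbs had an r of 0.542 with Ahcy and 0.516 with Gnmt. Mat1a had an r of -0.279 to 0.0127 with these 4 genes. The points share dose groups and library scaling, so the values are descriptive. By the same measure over all FROZ genes, the closest patterns to Mat1a were Cyp2a22 (0.935), Gstt3 (0.909) and Slc22a27 (0.905). The closest to Gnmt was Hpd (0.881), to Pemt Cyp2c55 (0.869), to Cbs Slc6a13 (0.887) and to Ahcy Gm4737 (0.891), with which it shares sequence. The closest to Bhmt was Ttr (0.822), to Shmt1 Upp2 (0.788), to Dnmt1 Epha7 (0.715) and to Mthfd1 6030458C11Rik (0.714). Each is the highest r over 11275 genes, a choice that raises it. In FFPE the r was 0.665 for Bhmt with Ttr, 0.534 for Ahcy with Gm4737 and 0.507 for Gnmt with Hpd. It was 0.438 for Mat1a with Gstt3, 0.314 for Mthfd1 with 6030458C11Rik, 0.223 for Cbs with Slc6a13 and 0.0247 for Shmt1 with Upp2. Cyp2a22, Slc22a27, Cyp2c55 and Epha7 were not listed in FFPE.

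The wider network was read from lists of 82 other genes of methionine, choline, folate, sulfur and DNA methylation metabolism, 69 of them listed in FROZ. In FROZ at 427 mg/kg-d 11 rose and 7 fell, 26.1% of those listed against 30.1% of all genes. The corresponding counts at 313 mg/kg-d were 12 and 7, 27.5% against 26.7%. The share called was thus near that of all genes at both doses. In the methionine cycle, Mtr, the folate-dependent methionine synthase, fell at 427 mg/kg-d by 0.48 ± 0.10 (limma, FDR = 0.000682), and the AHCY-like gene Ahcyl1 rose by 0.35 ± 0.13 (limma, FDR = 0.04). Ahcyl1 lost its call under median-ratio scaling, at 0.22 (limma, FDR = 0.205). Of 11 listed cycle genes including the members, 2 rose and 1 fell, but under median-ratio scaling 1 rose and 4 fell. At 313 mg/kg-d the cycle counts were 3 higher and 1 lower under the deposited scaling, and 0 higher and 3 lower under the other. Among small-molecule methyltransferases 1 of 8 rose, Inmt, by 1.13 ± 0.28 (limma, FDR = 0.00257). Of the polyamine and methionine salvage genes 1 of 7 rose, Mtap, which returns methylthioadenosine to methionine, by 1.02 ± 0.12 (limma, FDR = 2.06e-07).

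In transsulfuration and cysteine oxidation, 2 of 7 listed genes rose and 1 fell at 427 mg/kg-d, and 2 rose and 2 fell under median-ratio scaling. Cth, which acts just after CBS and releases cysteine, rose by 0.72 ± 0.15 (limma, FDR = 0.000425), whereas Cbs itself was at -0.22 ± 0.12 and not called, although it fell under median-ratio scaling. Suox, sulfite oxidase, rose by 0.42 ± 0.08 (limma, FDR = 0.000119), and Cdo1, cysteine dioxygenase, fell by 0.51 ± 0.14 (limma, FDR = 0.00546). In choline oxidation, Chdh, which makes the betaine that BHMT uses, rose by 0.97 ± 0.14 (limma, FDR = 9.82e-06). Dmgdh, which oxidizes the dimethylglycine that BHMT releases, fell by 0.68 ± 0.14 (limma, FDR = 0.000379), and of the other 3 listed 0 were called under the deposited scaling and 1 fell under median-ratio scaling. The genes on either side of BHMT thus moved in opposite directions at 427 mg/kg-d while Bhmt was at 0.18 ± 0.13. In the CDP-choline pathway, the other route to phosphatidylcholine beside PEMT, 3 of 5 rose and none fell. They were Pcyt1a at 0.85 ± 0.14, Chpt1 at 0.44 ± 0.11 and Cept1 at 0.41 ± 0.10, with limma FDR of 2.99e-05, 0.0029 and 0.00191. Under median-ratio scaling 1 of 5 rose, Pcyt1a, with Chpt1 and Cept1 just outside the threshold (limma, FDR = 0.0503 and 0.0592). At 313 mg/kg-d 3 of 5 rose under the deposited scaling, and 1 rose and 1 fell under the other.

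In the folate list, 1 of 17 listed genes rose and 3 fell at 427 mg/kg-d, and 1 rose and 6 fell under median-ratio scaling. Shmt2, the mitochondrial partner of SHMT1, rose by 0.47 ± 0.08 (limma, FDR = 7.15e-05). Aldh1l1, a cytosolic formyl-folate dehydrogenase, fell by 0.27 ± 0.09 (limma, FDR = 0.0166). At this dose 0 of 4 glycine cleavage and 0 of 3 serine genes were called, and 1 glycine cleavage gene fell under median-ratio scaling. In each of these lists 1 gene rose and 1 fell at 313 mg/kg-d, and under median-ratio scaling 0 rose and 1 fell. Of 11 listed genes of DNA methylation and demethylation, 1 rose and 1 fell at 427 mg/kg-d. Dnmt3b, a de novo methyltransferase, fell by 0.99 ± 0.17 (limma, FDR = 6.94e-05), and Mbd3, of the methyl-CpG-binding domain family, rose by 0.43 ± 0.12 (limma, FDR = 0.00691). Under median-ratio scaling 0 rose and 2 fell. At 313 mg/kg-d 3 rose (Dnmt1, Uhrf1 and Mbd3) and 1 fell, against 1 and 1 under the other scaling.

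In FFPE 57 of the 82 genes were listed, and at 427 mg/kg-d 2 rose and 0 fell, 3.51% against 2.41% of all genes. These were Inmt, at 1.70 ± 0.31 (limma, FDR = 0.000751), and Cth, at 0.82 ± 0.19 (limma, FDR = 0.0123). No gene of the 57 was called in FFPE at 313 mg/kg-d by limma.

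**Figure D4:**
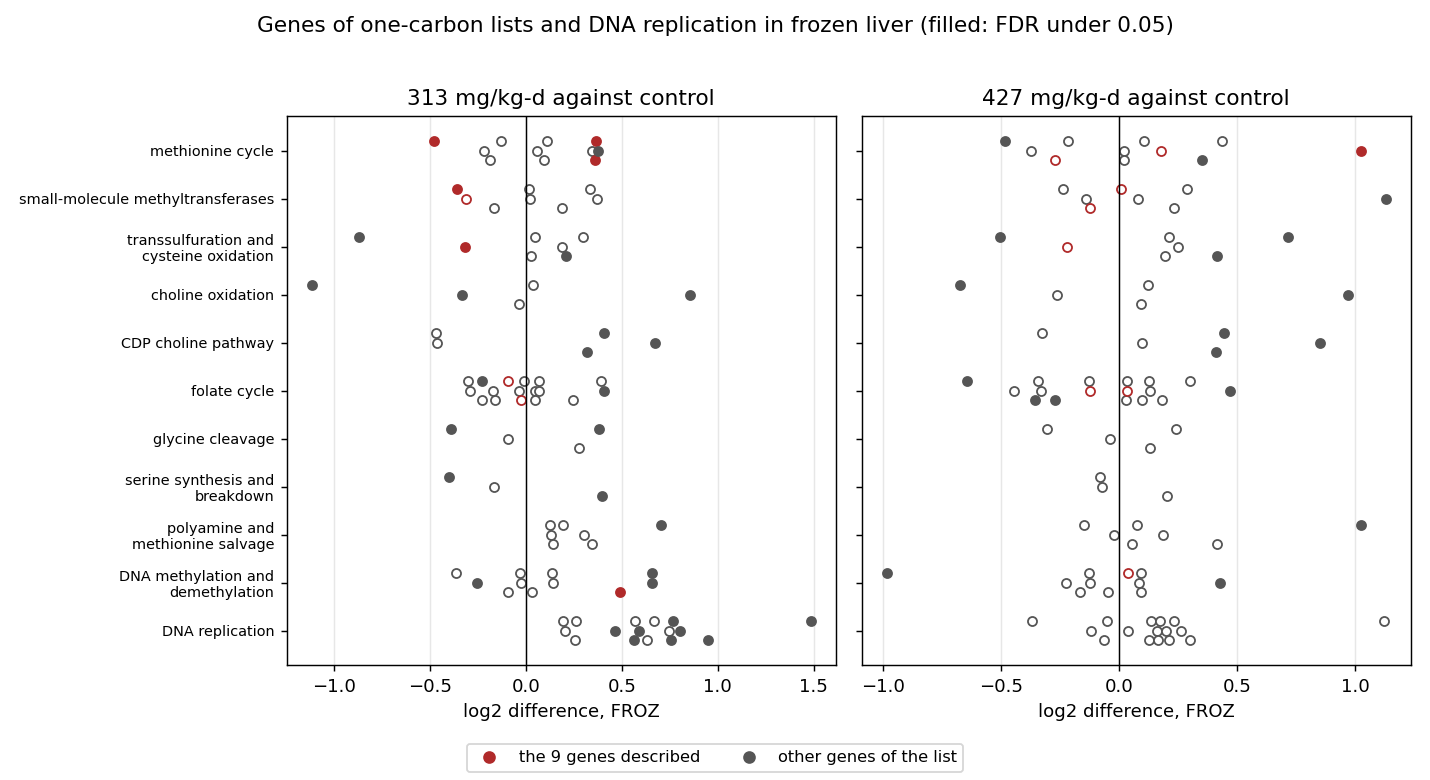
Log2 difference from vehicle controls of every listed gene of 10 one-carbon lists and of DNA replication in FROZ liver at 313 and 427 mg/kg-d, with the 9 members in red, the other genes in grey and filled symbols for FDR under 0.05. Called genes lie on both sides of 0 in most lists, the CDP-choline calls are all higher, and the DNA replication calls are at 313 mg/kg-d alone.

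Cell type and zonation markers moved at the same doses. Of all FROZ genes, 20.5% rose and 6.15% fell at 313 mg/kg-d, and 30.1% were called at 427 mg/kg-d, 75.6% of these calls being higher. Under median-ratio scaling 2375 and 2845 of 11275 genes were called at these doses, 48.7% and 50% of them higher. Pericentral hepatocyte markers fell in 6 of 8 at 313 mg/kg-d and in 3 of 8 at 427 mg/kg-d in FROZ, with summed CPM of 9266 to 13139 in controls, 7214 to 9077 at 313 mg/kg-d and 8711 to 10611 at 427 mg/kg-d. Under median-ratio scaling pericentral markers fell in 6 of 8 and 5 of 8 at these doses. Periportal markers fell in 3 of 8 and 2 of 8 under the deposited scaling, and in 6 of 8 and 3 of 8 under the other. General hepatocyte markers fell in 1 of 9 at 313 mg/kg-d, and at 427 mg/kg-d 2 rose and 2 fell, whereas under median-ratio scaling 0 rose at either dose and 3 and 4 fell. Kupffer cell markers had 0 of 8 called at 313 mg/kg-d and fell in 6 of 8 at 427 mg/kg-d in both scalings, with summed CPM of 234 to 312 in controls and 146 to 218 at 427 mg/kg-d. In FFPE 2 of 8 hepatocyte markers fell at 427 mg/kg-d and 0 of 5 Kupffer markers were called, against 2.41% of all genes called. Among 9 listed stellate markers 1 rose and 1 fell at 313 mg/kg-d and 2 fell at 427 mg/kg-d, and 1 of 10 endothelial markers fell at each of these doses. Under median-ratio scaling 1 stellate marker rose and 3 fell at 313 mg/kg-d, 4 fell at 427 mg/kg-d, and 4 of 10 endothelial markers fell at each dose. Of 3 listed cholangiocyte markers 0 were called at either dose under the deposited scaling, and 1 fell at 427 mg/kg-d under the other. Of 4 listed lymphocyte markers 0 were called at either dose in either scaling. No listed marker was at 0 throughout a group. Their part in the members' values was not tested.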

How the data were processed

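The authors aligned TempO-Seq reads to mm10 with STAR 2.6 in Partek Flow, assigned them to RefSeq transcripts with an expectation maximization counter, dropped genes whose geometric mean was at most 1, scaled to CPM separately for FROZ and FFPE, added 1 and deposited log2 values. Probes of very abundant transcripts were attenuated in the assay, and no member was among them. Depth was recovered from the steps between low values, and 96.2 to 97.1% of low FROZ values and 84.1 to 95.2% of low FFPE values were whole reads within 0.05 of a read. No deposited column went unmapped to a sample.

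Each dose was compared with controls by limma 3.58.1 (R 4.3.3) on log2(CPM + 1) over all genes of a table, with all 24 libraries sharing 1 variance estimate and a prior that follows the mean. limma took the place of the study's Partek test. FDR is the Benjamini-Hochberg value over all genes, two-sided, called under 0.05. A log2(CPM + 1) difference understates the change of low genes. Dose trend, dose steps and FFPE minus FROZ within an animal were fitted likewise. The titles give each animal's number, so the pairing comes from the same mouse. Over 4815 genes the deviations of FROZ and FFPE libraries had a median r of 0.128 within an animal and -0.0232 between animals of a dose, and 21 of 24 FROZ libraries correlated best with their own FFPE library. All members were named. Other pathway genes were named as the up to 4 with the largest difference at 427 mg/kg-d in FROZ per list, with exceptions stated, and values of some genes of these lists are not reported here. The members and lists were chosen with earlier results of these data known. Fits were tested on simulated data. Alternatives were offsets of 0.1 and 4 CPM, median-ratio scaling, a 10 CPM minimum, other variance settings, array weights, the compared groups alone, voom on recovered reads and leaving out each animal. Chosen after seeing the data were leaving out FFPE libraries under 3 M reads and summing Ahcy with Gm4737. Voom called 2985 genes at 313 and 3424 at 427 mg/kg-d in FROZ, against 3010 and 3391 by limma on log2 values. Gene positions came from GENCODE M21 on GRCm38. Promoter windows came from RefSeq.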

Additional observations from a re-analysis of the deposited data

Results flagged for a closer look

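In 7 of 68 groups of 6 libraries, 1 library lay far from the other 5 by Dixon's test, and chance flags about 1 in 20 groups. Values are log2(CPM + 1). Mat1a in FFPE at 313 mg/kg-d was 11.43 in animal 78, with the next value at 10.96. Cbs in FROZ was 9.45 in the same animal, with the next value at 9.03. Pemt in FROZ was 8.09 in control animal 8, below the next value of 8.54. Pemt in FFPE at 313 mg/kg-d was 10.02 in animal 76, above the next value of 9.15. Ahcy in FFPE was 8.16 in control animal 3, above the next value of 7.40. Shmt1 in FFPE at 198 mg/kg-d was 7.31 in animal 53, above the next value of 5.93. Mthfd1 in FROZ at 427 mg/kg-d was 7.13 in animal 101, below the next value of 7.55. Without control animal 8, the Pemt difference in FROZ at 313 mg/kg-d was -0.45, and without animal 78 the Cbs difference was -0.40.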

How the results depend on the processing

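The rise of Mat1a at 427 mg/kg-d kept its call under every alternative run, at 0.95 to 1.07 in FROZ and 0.93 to 1.10 in FFPE when 1 animal was left out. Median-ratio scaling gave 0.88 in FROZ, so the call held but the DEG label, which needs more than 2-fold, depended on the setting. No called member changed direction. With 1 animal left out, 3 to 5 members were called in FROZ at 313 mg/kg-d, 1 to 2 at 427 mg/kg-d, 1 to 4 for the FROZ trend and 0 to 1 for the FFPE step from 313 to 427 mg/kg-d. Median-ratio scaling gave 3 members at 427 mg/kg-d in FROZ (Mat1a, Ahcy and Cbs) and 5 for the FROZ trend (these with Pemt and Mthfd1). In FFPE at 427 mg/kg-d 2 members (Mat1a and Cbs) were called with array weights and 2 with the compared groups alone, where all genes gave 524 and 427 calls against 161. The cause was not tested. Without the replicate block, that is without pairing libraries by animal, 0 members differed in response between preservations at each dose and 6 differed in controls, the same counts as with it. Of single results under the alternatives, 2401 stayed on their side of the threshold, 23 gained a call and 50 lost one. These are refits of 134 results, and the 2401 include results called in neither fit. The 50 losses could fall on called results only, among them Bhmt and Cbs in FROZ at 313 mg/kg-d. FFPE libraries held 1.83 to 6.01 M reads, and Mthfd1 ran from 0 to 241 reads in FFPE controls. Dnmt1 was read in FROZ only, at 12 to 43 reads.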
